A study of Homo sapiens with 4 samples.

Results

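Syndecans and glypicans are the 2 families of cell-surface proteoglycans that carry heparan sulfate. The 9 genes described here were chosen by name from the 63677 Ensembl genes of the count table, and they are the 4 syndecan genes *SDC1*, *SDC2*, *SDC3* and *SDC4* and the 5 glypican genes *GPC1*, *GPC2*, *GPC3*, *GPC4* and *GPC6*. They were measured by RNA sequencing in the human hepatic stellate line LX-2, an established cell line, and stellate cells are the type that lays down collagen in the fibrotic liver. Both groups received rhTGF-β1, at 5 ng/mL, 24 h after transfection with 20 nM of a microRNA mimic, and RNA was collected 24 h later. One group carried the miR-6133-5p mimic and the other a negative control mimic (miControl), with 2 libraries each and no group without rhTGF-β1. Nothing in the sources used here says whether the 2 replicates of a group were separate cultures, so the p-values measure only the spread between these libraries, which may be technical.

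Syndecans span the membrane with a single helix, carry their heparan sulfate chains far from the membrane and bind scaffold proteins with a short cytoplasmic tail. Glypicans are globular proteins that hang on the outer face of the membrane by a lipid anchor. The sulfated chains of both bind growth factors such as the FGFs, and syndecans also act beside integrins in the attachment of cells to matrix. In the liver, stellate cells that turn into myofibroblasts depend on several of the factors that these chains bind.

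The miRNA behind the mimic is encoded by *MIR6133*. Its hairpin, taken from RefSeq (GRCh38.p14, chr7:133290881-133290988, + strand, 108 bases), is shown because the mimic copies an RNA that is cut from it. All 102 stretches of 7 bases in the hairpin were matched, as reverse complements, to the 3′-UTRs of the canonical transcripts of tested genes other than the 9 described here, and the capitals mark the stretch whose matches went with the lowest mean log2 fold change (miR-6133-5p over miControl).
MIR6133 hairpin: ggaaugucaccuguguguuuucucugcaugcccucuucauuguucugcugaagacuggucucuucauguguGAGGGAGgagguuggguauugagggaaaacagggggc

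Its reverse complement, CTCCCTC, was found in the 3′-UTRs of 2854 genes, whose mean log2 fold change was -0.22, and was missing from those of 10482 genes, whose mean was 0.06. The stretch was chosen by these fold changes, the groups of genes were not balanced for UTR length, and no test was made. Of the 7 syndecan and glypican genes that could be tested, *SDC3* and *SDC4* held the 7 bases once each, and *SDC1*, *SDC2*, *GPC1*, *GPC2* and *GPC6* did not hold them. Across all 13343 tested genes with a 3′-UTR, 21.4% held them. The match of *SDC3* starts at base 3393 of a 3′-UTR of 3745 bases, counted from the stop codon, and that of *SDC4* starts at base 1687 of 1976. With their flanks they span chr1:31342651-31342677 for *SDC3* and chr20:43954203-43954229 for *SDC4* (GRCh37, both on the - strand). Both are printed with their flanks, the match in capitals, because they are the only such matches among these genes.
SDC3: aagacagtgtccCTCCCTCctgtgagt
SDC4: ttgtctgggaccCTCCCTCtcctgaga

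The 2 genes with a match went in opposite directions, as given next, and the 2 genes that were called lower had none. A match is a description of the letters, not evidence of a working site.

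Counts on genes summed to between 51862006 and 93811213 per library, or 1.62 to 1.65 counts for each read pair given to the aligner, so that the mates of a pair could add a count each. Levels are given as CPM, which set each count against the total of its library after scaling by TMM factors, and 1 count was worth 0.0101 to 0.0203 CPM. Of the stellate cell markers, *COL1A1* was at 3112 and 2723 CPM with miControl and at 995 and 1133 CPM with miR-6133-5p. *VIM* lay between 1555 and 2030 CPM, whereas *DES* had at most 2 counts and *LRAT* at most 7. Of the 12 stellate markers listed, 10 could be tested. By the rule given next, 4 of these were called lower, as were 5.54% of all tested genes. They were *COL1A1*, *COL1A2*, *ACTA2* and *TAGLN*, all reported as lowered by the study, so their count is not independent evidence. Of the listed markers of hepatocytes, endothelium, epithelium and leukocytes, 1 of 6, 3 of 5, 2 of 5 and 2 of 6 passed the filter on low counts, and *TTR*, *HNF4A*, *FGB* and *CD3E* had 0 counts, *ALB* at most 6, *EPCAM* at most 4, *CDH5* at most 12 and *PTPRC* at most 23. Others were detected, among them *CSF1R* with 436 to 696 counts, *TEK* with 128 to 313 and *SERPINA1* with 97 to 218. The epithelial keratin gene *KRT7* lay above miControl in both miR-6133-5p libraries, at 3.62 and 4.44 CPM against 6.61 and 7.08 CPM (log2 fold change 0.76, adjusted p = 0.00317, edgeR, short of the fold threshold), and its part in the results was not tested. With bulk RNA, fewer expressing cells and less RNA per cell cannot be told apart.

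The comparison of miR-6133-5p with miControl asks how the mimic altered transcript levels under rhTGF-β1. Calls of lower or higher required a log2 fold change beyond 0.8 and an adjusted p-value under 0.01 (edgeR quasi-likelihood test, Benjamini–Hochberg adjustment over 18252 tested genes). Among the 9, the calls were 2 lower, *GPC6* and *SDC1*, and 0 higher (edgeR), with 0 called higher by DESeq2 as well. An unadjusted p-value below 0.05 (edgeR) was reached by 6 of the 7 tested genes, 4 lower and 2 higher. Over all tested genes, 40.3% reached it, in either direction. For comparison, 5.54% of all tested genes were called lower and 2.9% higher. The 7 tested genes had a median log2 fold change of -0.34, against 0.03 for all tested genes, and ran from -1.50 to 0.73. In all 7 the CPM of the groups did not overlap, which was also so for 64.4% of all tested genes, and 4 lay below and 3 above miControl. For 1 gene, an exact permutation test over the 4 libraries cannot give a p-value below 0.333, and the p-values rest on the spread shared across genes.

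**Figure D1:**
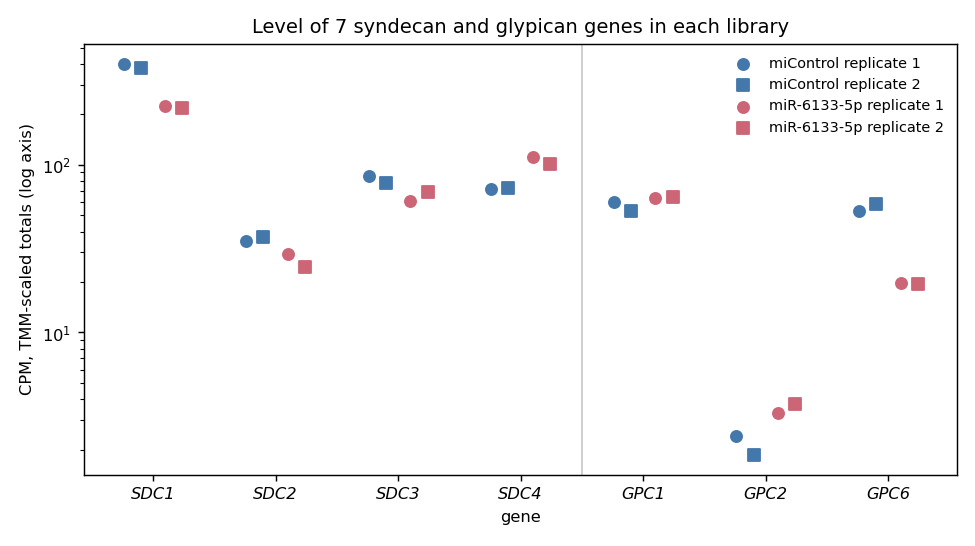
Level of each tested syndecan and glypican gene in the 4 libraries, as CPM on a log axis; circles are replicate 1 and squares replicate 2. *SDC1* stands above all others at 219 to 401 CPM, *GPC2* lies lowest at 1.85 to 3.76 CPM, and the separation of the groups is widest for *GPC6*.

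*SDC1* (ENSG00000115884, chromosome 2 from 20400558 to 20425194 of GRCh37) encodes the syndecan best known from epithelia and plasma cells. It measured 401 and 380 CPM in the miControl libraries and 223 and 219 CPM in the miR-6133-5p libraries. Both miR-6133-5p libraries were thus lower, and they lay closer to each other than the miControl libraries did. *SDC1* fell by 0.82 on the log2 scale (standard error 0.102, 95% interval from -1.04 to -0.60, adjusted p = 5.01e-05, edgeR). The value is just past the threshold of 0.8. It was -0.66 with library totals as the only scaling and -0.79 without replicate 1 of miControl, and *SDC1* was not called in either case, nor when the fold change was tested against 0.8 itself (adjusted p = 1.0, glmTreat of edgeR).

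*SDC4* (ENSG00000124145, chromosome 20 from 43953928 to 43977064) encodes the syndecan of focal adhesions, whose tail binds protein kinase C alpha. Its level was 71.3 and 73.0 CPM with miControl, and 112 and 101 CPM with miR-6133-5p. It was the only syndecan whose miR-6133-5p libraries both lay above miControl. The log2 fold change of 0.56 (standard error 0.103, 95% interval from 0.34 to 0.78, adjusted p = 0.00116, edgeR) passed the p-value but not the fold threshold, and it ran from 0.49 to 0.72 over the alternatives. Its processed pseudogene *SDC4P* had 0 counts in each library.

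*SDC2* (ENSG00000169439, chromosome 8 from 97506041 to 97624018), the syndecan typical of mesenchymal cells, measured 35.3 and 37.2 CPM with miControl and 29.6 and 24.6 CPM with miR-6133-5p. *SDC3* (ENSG00000162512, chromosome 1 from 31342313 to 31381605), first known from the nervous system, measured 86.1 and 78.2 CPM with miControl and 60.6 and 68.9 CPM with miR-6133-5p. In both genes the miR-6133-5p libraries were the lower ones, but the spread within a group was wide next to the gap between groups. Neither passed the test, with log2 fold changes of -0.42 for *SDC2* (95% interval from -0.68 to -0.17, adjusted p = 0.0153) and -0.34 for *SDC3* (95% interval from -0.58 to -0.11, adjusted p = 0.0292, edgeR). With library totals they came to -0.26 and -0.18.

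*GPC6* (ENSG00000183098, chromosome 13 from 93879060 to 95060274) encodes a glypican of mesenchymal tissues and growing cartilage. The miControl libraries held 53.0 and 58.3 CPM and the miR-6133-5p libraries 19.8 and 19.4 CPM. The fall was far wider than the spread within either group. *GPC6* fell by 1.50 on the log2 scale (standard error 0.108, 95% interval from -1.74 to -1.27, adjusted p = 4.87e-07, edgeR), and 2.21% of all tested genes had a value as low or lower. It was called lower under each of the 13 alternatives, from -1.58 to -1.34. The antisense genes *GPC6-AS1* and *GPC6-AS2* had at most 5 counts in any library.

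*GPC1* (ENSG00000063660, chromosome 2 from 241375080 to 241407493), a widely expressed glypican that binds FGF2, measured 60.1 and 53.1 CPM with miControl and 63.1 and 64.3 CPM with miR-6133-5p. The nearest libraries of the groups, at 60.1 and 63.1 CPM, were closer than the miControl libraries were to each other. Its log2 fold change was 0.17 (95% interval from -0.06 to 0.40, adjusted p = 0.249, edgeR). It was 0.06 without replicate 2 of miControl and 0.33 with library totals (adjusted p = 0.0249, edgeR). Its antisense gene *GPC1-AS1* had 4 to 50 counts, against 2890 or more of *GPC1*.

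*GPC2* (ENSG00000213420, chromosome 7 from 99767229 to 99775004), a glypican of the developing nervous system, was the least abundant, with counts of 118 and 101 for miControl and of 215 and 373 for miR-6133-5p, whose libraries were deeper. These came to 2.40 and 1.85 CPM with miControl and 3.29 and 3.76 CPM with miR-6133-5p. The log2 fold change was 0.73 (standard error 0.211, 95% interval from 0.28 to 1.19, adjusted p = 0.0182, edgeR), with the widest interval of the 7, and did not pass. With library totals it was 0.90, and *GPC2* was then called higher.

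**Figure D2:**
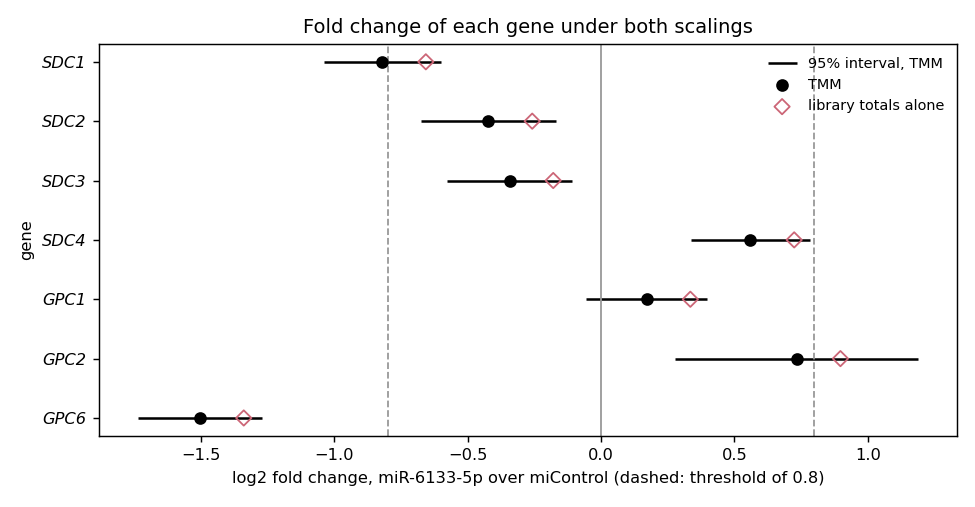
Log2 fold change (miR-6133-5p over miControl) of each tested gene, with its 95% interval under TMM (black) and the value with libraries scaled by totals alone (open diamonds); dashed lines mark 0.8. All diamonds lie to the right of the black points, *SDC1* then falls short of the threshold at -0.66, and *GPC2* passes it at 0.90.

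All values moved up together with library totals, since the median over all tested genes, on the log2 scale, was 0.19 with totals and 0.03 with TMM. Of all called genes, 65.6% were lower with TMM and 42.1% with totals. With totals, the called genes were 1 lower (*GPC6*) and 1 higher (*GPC2*), where TMM gave 2 lower and 0 higher.

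The ratio of members within a library does not depend on the scaling. There were 5.63 and 5.21 *SDC1* counts per *SDC4* count in the miControl libraries, against 2.00 and 2.17 in the miR-6133-5p libraries. *GPC1* counts per *GPC6* count were 1.13 and 0.911 with miControl and 3.19 and 3.31 with miR-6133-5p. In both pairs the groups were far apart relative to their replicates. Each pair sets a gene called lower against one that was not, so the gap restates the fold changes above. *SDC2* counts per *SDC4* count were 0.495 and 0.51 with miControl and 0.265 and 0.243 with miR-6133-5p. For *SDC3* they were 1.21 and 1.07 with miControl and 0.543 and 0.68 with miR-6133-5p.

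To compare levels between genes, CPM were divided by the length of each gene's merged exons in kilobases. *SDC1* led the syndecans in every library, with a mean of 108.0 CPM per kilobase with miControl and 61.2 with miR-6133-5p. *SDC4* came second, with means of 27.6 and 40.7 CPM per kilobase. Below it were *SDC3* at 11.6 and 9.16 and *SDC2* at 8.88 and 6.63 CPM per kilobase, whose order was the same in each of the 4 libraries. The summed syndecan level was 159 and 153 CPM per kilobase with miControl and 120 and 115 with miR-6133-5p. *SDC1* made up 69.2% ± 0.831 of it with miControl and 52.0% ± 0.955 with miR-6133-5p, while *SDC4* went from 17.7% ± 0.771 to 34.6% ± 1.33 (mean ± SD, n = 2). The shares of *SDC2* and *SDC3* differed by less than their SDs with miR-6133-5p.

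The summed glypican level was lower than that of the syndecans, at 17.3 and 16.8 CPM per kilobase with miControl and 13.3 and 13.6 with miR-6133-5p. By this length, *GPC1* and *GPC6* were close to each other in the miControl libraries and changed rank between them, with *GPC1* at 53.3% of the glypican level in replicate 1 and 48.4% in replicate 2. In the miR-6133-5p libraries *GPC1* held 72.7% in both, and *GPC6* 20.9% and 20.1%. *GPC2* went from 3.25% ± 0.525 to 6.83% ± 0.564. These shares rest on the lengths used. With the longest coding transcript as the length, *GPC1* held 63.7% with miControl and 80.5% with miR-6133-5p, and *GPC6* held 32.8% and 13.0%. *SDC4* then held 16.2% and 32.2% of the syndecan level, and *SDC2* 6.45% and 6.48%. The *SDC1* share moved to 53.3% with miR-6133-5p.

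**Figure D3:**
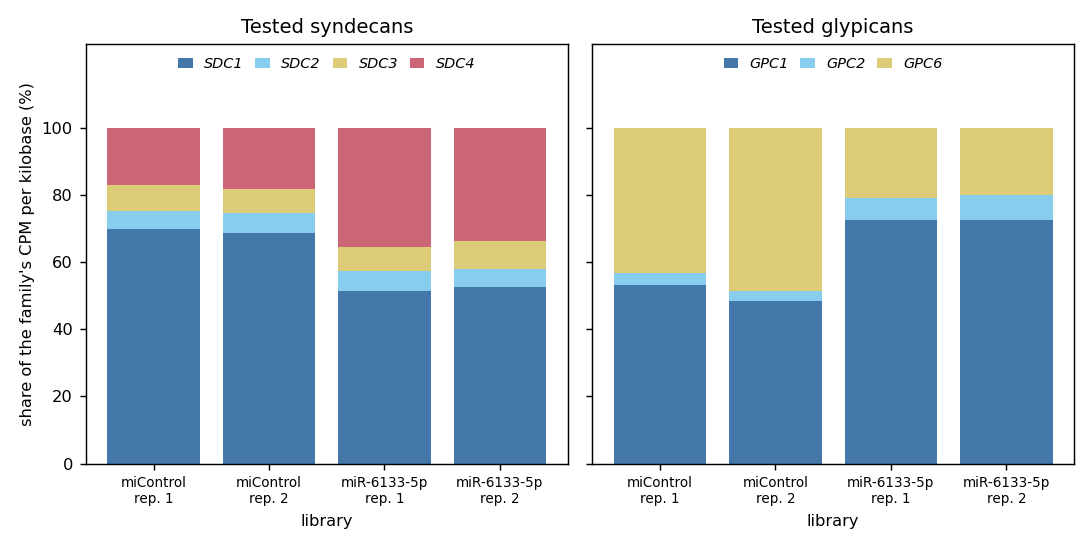
Share of each tested gene in its family's summed CPM per kilobase, in percent, stacked for each of the 4 libraries. The *SDC4* band is 17.1% and 18.2% in the miControl libraries and 35.5% and 33.6% in the miR-6133-5p libraries, and the *GPC6* band narrows from 43.1% and 48.7% to 20.9% and 20.1%.

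*GPC3*, the oncofetal glypican, and its neighbour *GPC4* had 0 counts in all 4 libraries, and neither could be tested. A count of 0 allows up to 3 counts, or 0.0610 CPM in the shallowest library, if each count is independent. The limit is higher where both mates of a pair add a count. It covers counting error only and says nothing of whether LX-2 carries these genes, which was not tested. The genes lie side by side on chromosome X, *GPC4* from 132434131 to 132549517 and *GPC3* from 132669773 to 133121127 of GRCh37. They stood in a run of 6 adjacent protein-coding genes that all had 0 counts, from *HS6ST2*, which encodes a heparan sulfate 6-O-sulfotransferase, to *CCDC160*. Between the flanking genes *MBNL3*, with 79 counts over the 4 libraries, and *PHF6*, with 11853, lay 29 annotated genes in 1883 kilobases, and 27 of them had 0 counts. The exceptions were the processed pseudogenes *RPS24P19* with 24 and *TIMM8BP2* with 10 counts, whose reads are uncertain because such copies resemble their parent genes. Across the table, 15.0% of protein-coding genes had 0 counts in all 4 libraries, and 27.0% of those on chromosome X, where the longest such run held 17 genes.

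*GPC5*, the remaining human glypican, was not among the 9 genes and was named after its values were seen. It had 37 and 32 counts with miControl and 20 and 21 with miR-6133-5p, and its log2 fold change, -1.39 with a standard error of 0.455 (adjusted p = 0.0347, edgeR), did not pass the test at 0.01.

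The genes with the pattern most like *SDC1* over the 4 libraries, by the Euclidean distance of centred log2 CPM among the 9566 genes whose mean log2 CPM was 3 or more, were *PRR5L* (0.024), *ERF* (0.028) and *SLC39A1* (0.0352). Those most like *GPC6* were *TGFB2* (0.0708), *PRR16* (0.0728) and *PID1* (0.0728). These 6 genes had log2 fold changes of -0.85, -0.81, -0.84, -1.55, -1.51 and -1.45 in this order. Being picked by their values in the same libraries, they had to have fold changes near those of *SDC1* and *GPC6*. The likeness is thus no evidence of shared regulation.

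Heparan sulfate chains are built on a 4-sugar linkage region, extended by the exostosins and then sulfated, and the core proteins are matured, shed and bound by ligands. In 10 gene lists around these steps, 95 of 111 genes could be tested, with a median log2 fold change of -0.14. Of these, 13 were called lower and 6 higher, where 5.54% and 2.9% of all tested genes were. The 13 include 5 growth factor genes that the study picked from these libraries. They also include *MMP14*, which the study listed as lowered in them. Neither count nor median is thus independent evidence. The first steps held no called gene (edgeR or DESeq2), and lists this short would hold few or none at the shares of all tested genes. None of the 7 linkage region genes was called, although 4 had an unadjusted p-value below 0.05, as 40.3% of all tested genes did. Of the 4, *FAM20B* at -0.58 and *B3GAT3* at 0.50 passed the adjusted p-value but not the fold threshold. Both were named after their values were seen. The most abundant, the xylosyltransferase gene *XYLT1*, measured 438 and 424 CPM with miControl and 299 and 361 CPM with miR-6133-5p (log2 fold change -0.39, adjusted p = 0.0204, edgeR). None of the 5 exostosin genes was called and 1, *EXTL3*, had an unadjusted p-value below 0.05. Named after its values were seen, it fell from 72.1 and 69.3 CPM to 36.7 and 46.9 CPM. Its log2 fold change of -0.76 (adjusted p = 0.000424, edgeR) was short of the fold threshold. *EXT1*, a subunit of the polymerase, was at 83.1 and 82.9 CPM with miControl and 89.0 and 89.7 CPM with miR-6133-5p. None of the 7 genes of precursor supply was called, 3 having an unadjusted p-value below 0.05, and *UGDH*, which makes the glucuronate donor, was at -0.74 (standard error 0.102), short of the fold threshold.

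Among the genes that sulfate and epimerize the chains, 9 of 16 could be tested, with a list median of -0.09. The calls were 3 lower and 0 higher, where 5.54% and 2.9% of all tested genes were. *HS3ST3B1*, a 3-O-sulfotransferase, fell from 9.50 and 8.81 CPM to 2.14 and 2.09 CPM (log2 fold change -2.11, standard error 0.159, adjusted p = 7.18e-07, edgeR). Its paralog *HS3ST3A1* fell by 0.91 on the log2 scale, and reads from their similar catalytic domains are uncertain. *NDST1*, the enzyme that starts sulfation by replacing acetyl groups, fell from 377 and 362 CPM to 173 and 203 CPM (log2 fold change -0.98, standard error 0.112, adjusted p = 2.56e-05, edgeR). *NDST1* held the 7 bases of the hairpin match 3 times in its 3′-UTR, *HS3ST3B1* once and *HS3ST3A1* not at all. Over the 10 lists, 5 of 13 genes called lower and 0 of 6 called higher held them, against 21.4% of all tested genes with a 3′-UTR. The fold changes of these list genes took part in choosing the stretch, and UTR lengths were not balanced. The counts are thus not independent evidence. *HS3ST5*, another 3-O-sulfotransferase, named after its values were seen, had 22 and 34 counts with miControl and 84 and 113 with miR-6133-5p (log2 fold change 1.17, adjusted p = 0.0196, edgeR). With library totals *HS3ST3A1* was no longer called and *HS3ST5* was called higher at 1.33, and with the fold threshold inside the test only *HS3ST3B1* was.

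Of 11 tested genes that edit or break down heparan sulfate, 1 was called higher, *HGSNAT*, a lysosomal acetyltransferase, at 41.1 and 39.3 CPM with miControl and 71.3 and 70.9 CPM with miR-6133-5p (log2 fold change 0.82). It was just past 0.8 and was not called without replicate 2 of miControl. *HPSE*, at -0.58 on the log2 scale, and *SGSH*, at 0.64, passed the adjusted p-value but not the fold threshold (edgeR). Both were named after their values were seen. Of the 11, 5 had negative and 6 positive log2 fold changes. The enzymes that build chondroitin and dermatan sulfate, the other chains that syndecans can carry, had a median of -0.36 among 15 tested genes. Of these, 2 were called lower and 1 higher, where 5.54% and 2.9% of all tested genes were. *CHST14*, the dermatan 4-O-sulfotransferase, rose from 8.54 and 8.50 CPM to 24.5 and 23.7 CPM (log2 fold change 1.50, standard error 0.118, adjusted p = 1.03e-06, edgeR). *DSEL*, a dermatan sulfate epimerase, fell by 1.25 and *CHST15* by 1.12 on the log2 scale.

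Over all tested genes, 5.54% were called lower and 2.9% higher. Of 10 other tested genes of proteoglycans that can carry heparan sulfate, *TGFBR3* alone was called. It encodes betaglycan, the TGF-β co-receptor, and rose from 24.6 and 25.6 CPM to 66.9 and 74.5 CPM (log2 fold change 1.49, standard error 0.108, adjusted p = 5.08e-07, edgeR). *SPOCK1*, a secreted testican and the most abundant of the list at 1119 to 1479 CPM, had a log2 fold change of -0.38 (adjusted p = 0.0104, edgeR). *HSPG2*, the perlecan gene, named after its values were seen, was at 42.7 CPM in replicate 1 and 90.9 CPM in replicate 2 of miR-6133-5p, on either side of its miControl libraries at 54.8 and 50.2 CPM.

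The cytoplasmic partners of syndecans held 0 called genes among 8 (edgeR and DESeq2), where 5.54% of all tested genes were called lower and 2.9% higher. Of the 8, 5 had an unadjusted p-value below 0.05, as 40.3% of all tested genes did. An adjusted p-value under 0.01 (edgeR) was reached by 3, all short of the fold threshold. They were *PRKCA*, given below, *GIPC1* at -0.74 and *CASK* at -0.61, the last 2 also named after their values were seen. *EZR*, the membrane linker ezrin, was the most abundant at 477 and 474 CPM with miControl and 505 and 512 CPM with miR-6133-5p. *PRKCA*, the kinase that the *SDC4* tail binds, was named after its values were seen and was at -0.51 (adjusted p = 0.00386, edgeR), short of the fold threshold.

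Among 10 tested genes for shedding and processing of core proteins, 2 were called lower and 1 higher, where 5.54% and 2.9% of all tested genes were. *FURIN*, a convertase that can cleave glypican cores, fell from 230 and 210 CPM to 72.5 and 78.3 CPM (log2 fold change -1.55, standard error 0.108, adjusted p = 4.27e-07, edgeR). *MMP14*, a membrane protease that can cleave syndecan ectodomains, fell by 1.17 on the log2 scale. The study had listed it as lowered in these libraries. With the fold threshold inside the test only *FURIN* was called. *MMP9* was called higher at 1.99, but with only 18 and 17 counts with miControl and 72 and 156 with miR-6133-5p, and it was not called without either miControl library.

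Of 13 tested heparin-binding growth factors, 6 were called lower and 2 higher, where 5.54% and 2.9% of all tested genes were. The list median was -0.66. *FGF1*, *FGF2*, *FGF5*, *HBEGF* and *VEGFA* are 5 of the 6, the lowest log2 fold change being -1.75 for *FGF1*, and since these libraries are where the study picked them, neither their count nor the list's median is independent evidence. Without these 5 the median of the other 8 was 0.10. The sixth was *WNT5A*, at 204 and 224 CPM with miControl and 96.7 and 98.1 CPM with miR-6133-5p, and the 2 called higher were *PDGFB* at 1.19 and *BMP4* at 0.84 on the log2 scale. *BMP4* was called in only 1 of the 4 fits that left out a library, the one without replicate 2 of miR-6133-5p. These 3 and *VEGFA* were named after their values were seen.

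**Figure D4:**
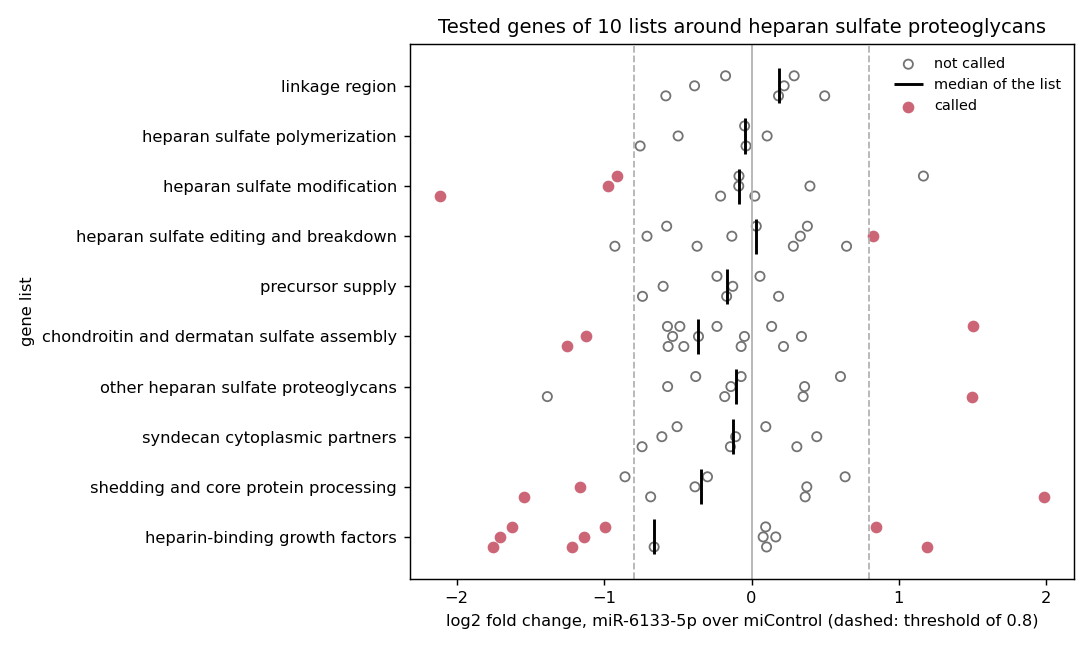
Log2 fold change (miR-6133-5p over miControl) of each of 95 tested genes in 10 lists; filled points were called, open points were not, black ticks are list medians and dashed lines mark 0.8. Called genes are absent from the linkage region, polymerization, precursor supply and cytoplasmic partner lists, and 8 of the 19 called genes are heparin-binding growth factors.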

How the data were processed

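LX-2 libraries, 2 per group, were compared. Read pairs (150 bases each mate) were aligned by the authors to GRCh37, with STAR 2.5.3a, and the submitters' notes name featureCounts of Subread 1.6.4. They deposited whole-number counts per Ensembl gene without normalization, as 1 table and as 4 single-library files that held identical values. The annotation release, strand setting and filters are not given in the sources used here. In that annotation's stead, GENCODE v44 lifted to GRCh37 gave symbols, positions, exon lengths and 3′-UTRs, and none of the 9 genes shares exon bases with another gene of the table.

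Counts were filtered with filterByExpr, scaled by TMM and fitted across all 18252 remaining genes with glmQLFit and glmQLFTest in edgeR 4.0.16 (R 4.3.3), 2-sided. The test and thresholds follow the study's methods, and no block was used. Standard errors and 95% intervals came from the F statistic. DESeq2 1.42.0 and further settings were alternatives. The fit was tested on simulated data. Tables and plots used Python 3.11.15 with pandas 2.3.3 and matplotlib 3.10.9.

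The 9 genes and all lists were chosen with earlier results of these data known. Named genes are the 9; in each list the called genes, at most the 4 with the largest absolute log2 fold change; the most abundant where fewer than 2 were called; and the 3 nearest patterns to the most changed syndecan and glypican. Exceptions are marked in the text. One gene that the rule names is not reported here. Of 154 listed genes and markers, 153 were in the table.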

Additional observations from a re-analysis of the deposited data

How the results depend on the processing

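Log2 fold changes of the 7 tested syndecan and glypican genes had the same sign under all 13 alternatives. With library totals alone, 1 of these genes was called lower and 1 higher, and heparan sulfate editing and breakdown had 2 called genes. With glmTreat, which tests the fold change against 0.8 itself, 1 gene was called lower, and the lists went to 1 called gene for heparan sulfate modification, 0 for editing and breakdown, 1 for shedding and processing and 4 for heparin-binding growth factors. At an adjusted p-value of 0.05 the other proteoglycans had 2 called genes, *GPC5* joining *TGFBR3*. Leaving out 1 library in turn, which assumes that a lone library varies like the other group, gave 1 to 2 genes called lower, and 0 to 1 called genes each for polymerization (*EXTL3*, without replicate 2 of either group), editing and breakdown (none without replicate 2 of miControl) and cytoplasmic partners (*GIPC1*, without replicate 2 of miControl). The cause was not tested. Over all tested genes, 1011 were called lower and 529 higher, against 326 and 80 with glmTreat and 709 and 977 with library totals. RLE normalization, DESeq2, no filter and a minimum of 10 counts in every library moved none of the counts by more than 1.5 times.

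Nothing in the sources used here says whether same-numbered libraries shared more than a number. The correlation between their deviations from the group means was 0.049. With a replicate block, 2 genes were called lower and 0 higher, as without the block, and modification had 4 called genes, *HS3ST5* being added as higher, as it also was without the filter and at an adjusted p-value of 0.05. Crossed numbers, an alternative chosen after seeing the data, gave 2 lower and 0 higher, and *HS3ST5* was not called. Over all tested genes, 1772 were called with the replicate block, 1575 with crossed numbers and 1540 without a block. Whether a pairing of the libraries lies behind this was not tested. Having 2 libraries per group limits the precision of every value, and *GPC2*, with 101 counts in 1 library, most of all.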
